A study of Mus musculus with 12 samples.

Results

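The 7 genes described here encode the inhibitors of the cyclin-dependent kinases (CDKs) of the cell cycle. They are the 4 INK4 genes Cdkn2a, Cdkn2b, Cdkn2c and Cdkn2d and the 3 CIP/KIP genes Cdkn1a, Cdkn1b and Cdkn1c. They were taken by name, through every probeset to which the platform table gives one of these symbols alone. All 7 were measured, by 36 of the 269751 probesets and as 7 of 23102 genes. Cdkn2a had 7 probesets, Cdkn1a 6, Cdkn1b, Cdkn1c and Cdkn2c 5 each, and Cdkn2b and Cdkn2d 4 each.

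RNA was compared between 6 oral tumours labelled KHR, which carried RAS and an added transgene named iHPV (a second label reads RAS-HPV E6), and 6 labelled KR, which expressed RAS alone. Both groups arose in F1 mice of the strains C57BL/6 and FVB, and the animals of both had been injected with tamoxifen intraperitoneally. The sources used here do not give the promoters that drive the transgenes, the meaning of the group letters, or the age and sex of the mice. Nor do the labels say that each tumour came from its own animal, so p-values measure the spread between these tumours, which may be technical. Each tumour was read on 1 array, in log2 intensity per probeset.

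INK4 proteins bind CDK4 and CDK6 and keep them from cyclin D, so that the retinoblastoma protein stays unphosphorylated and holds E2F factors in check. CIP/KIP proteins bind complexes of a cyclin with its CDK, above all those of CDK2. Human papillomavirus (HPV) E7 inactivates the retinoblastoma protein, and human HPV-positive cancers are known for abundant p16, an INK4 protein; HPV E6 directs p53, the activator of Cdkn1a, to degradation. Whether E7 was carried here is not given in the sources used. Cdkn2a is unusual in encoding 2 unrelated proteins, p16 INK4a and p19 ARF, from separate first exons spliced to shared ones; ARF protects p53 by binding MDM2.

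None of the 7 genes changed between the groups at an adjusted p under 0.05 (limma over all genes, two-sided, Benjamini-Hochberg), against 3.74% of all genes. Counted by direction, that background was 2.71% higher and 1.03% lower in KHR tumours. Means were higher in KHR tumours for 4 members and lower for 3, the median difference over the 7 was 0.08 on the log2 scale against 0.00450 over all genes, and for no member did all arrays of one group lie clear of the other (2.67% of all genes did). Before adjustment Cdkn2a and Cdkn2d had a p under 0.05, as 15.9% of all genes had. With the mean of a gene's probesets in place of their median, Cdkn1b passed, and without the array KR 4, Cdkn2a passed; both are described beside those genes.

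Keratinocyte markers, which an oral epithelial tumour should hold, were bright in both groups. The mean of 8 keratinocyte genes lay between 12.2 and 12.6 on KHR arrays and between 12.1 and 12.3 on KR arrays, and none of the 8 passed. Markers of other cells differed between tumours. The mean of 12 skeletal muscle genes ranged from 5.68 to 8.14 in KHR tumours, where KHR 5 was the highest, and from 5.62 to 6.95 in KR tumours. The mean of 6 neutrophil genes ranged from 8.29 to 8.81 in KHR tumours and from 7.37 to 8.39 in KR tumours, with 2 of the 6 past the threshold. The mean of 7 macrophage genes ranged from 6.29 to 7.19 in KHR tumours and from 5.68 to 6.84 in KR tumours. Xist, an RNA made from the inactive X of female cells, was high on 4 KHR and 2 KR arrays (KHR 3 to KHR 6, KR 4 and KR 6). In bulk tumour RNA, fewer cells of a type and less RNA per cell cannot be told apart, and the part of these differences in the results below was not tested beyond the values given.

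**Figure D1:**
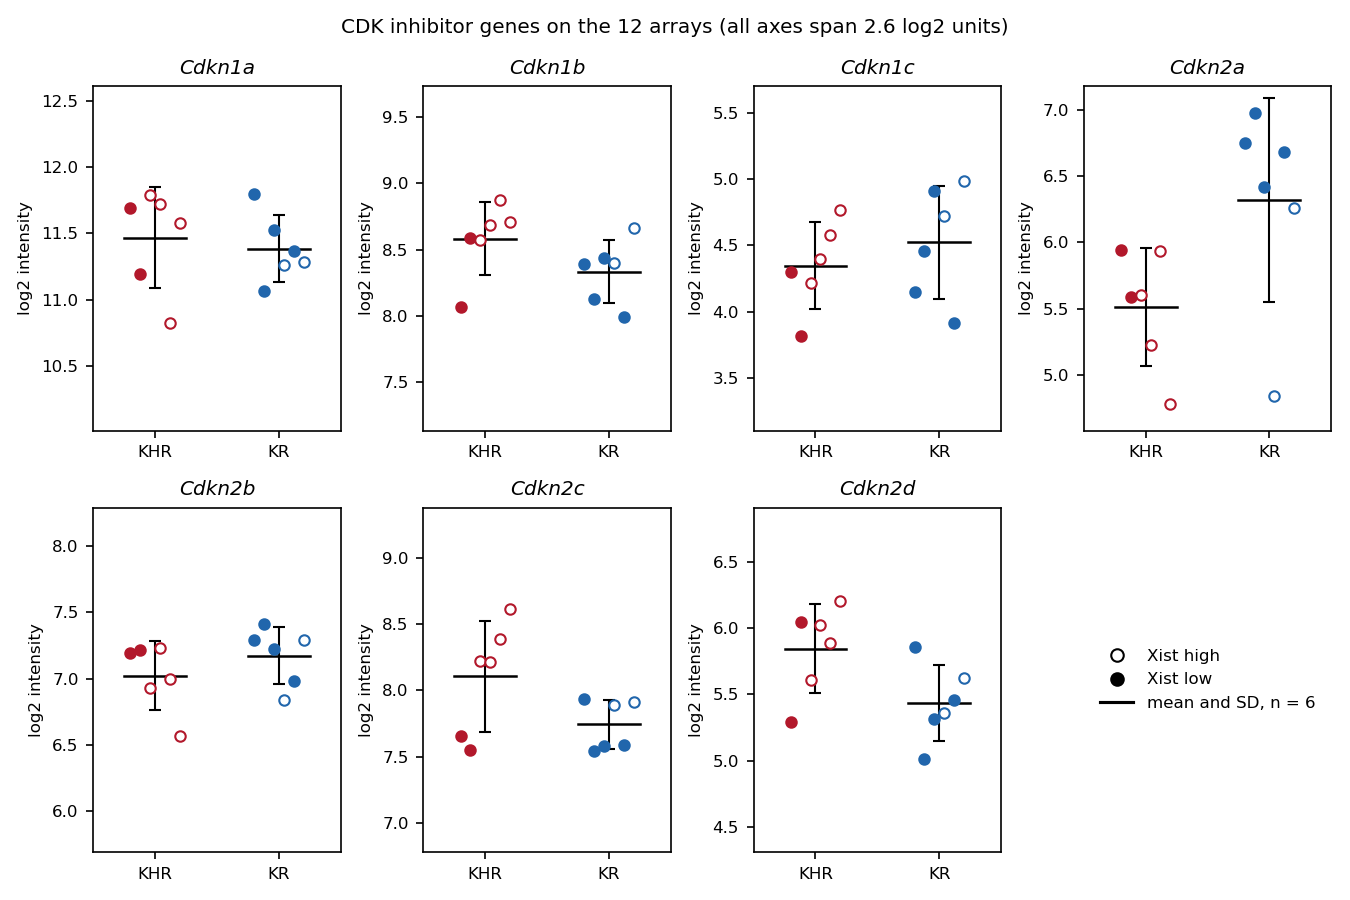
Log2 intensity of each CDK inhibitor gene (median of its probesets) on the 6 KHR and 6 KR arrays; each dot is 1 tumour, open where Xist was high, and bars give the mean and SD. The groups overlap in every panel, and the Cdkn2a value of KR 4, at 4.84, lies far below those of the other KR tumours.

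Cdkn2a spans chr4:89274473-89294619 (GRCm38.p6, minus strand), and RefSeq gives it start sites 12427 bases apart. The upstream start, at the first exon of ARF, and the downstream one, at the first exon of p16, are shown by the 250 bases that precede each, because the deposited values do not say which transcript a probeset reads. Capitals mark an E2F motif, searched on both strands as TTT followed by CC, CG, GC or GG and then CGC. Lines run 5′ to 3′ on the minus strand, at chr4:89294620-89294869 for the first and chr4:89282193-89282442 for the second, with sequences from RefSeq.
Cdkn2a, upstream start: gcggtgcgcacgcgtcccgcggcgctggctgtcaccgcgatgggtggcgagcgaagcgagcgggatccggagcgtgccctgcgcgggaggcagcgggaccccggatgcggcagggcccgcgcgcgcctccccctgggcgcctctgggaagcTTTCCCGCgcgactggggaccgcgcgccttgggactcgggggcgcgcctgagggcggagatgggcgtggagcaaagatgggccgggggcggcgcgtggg
Cdkn2a, downstream start: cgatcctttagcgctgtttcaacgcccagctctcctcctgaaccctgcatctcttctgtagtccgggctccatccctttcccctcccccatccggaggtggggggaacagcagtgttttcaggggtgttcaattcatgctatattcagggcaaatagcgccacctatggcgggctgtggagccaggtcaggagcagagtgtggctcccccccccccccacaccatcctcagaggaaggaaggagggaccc
The motif began 99 bases before the upstream start and was not among the letters of the downstream window. Of 32851 such windows of all genes, 1.86% held it, and among the 9 windows found for 6 of the 7 members (Cdkn1c had none in the table) this was the only one. A match of letters is a description and not a bound site.

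By the median of the probesets Cdkn2a differed most of the 7, but with their mean it stood behind Cdkn2c, Cdkn2d and Cdkn1b, and with median polish behind Cdkn2c. Its value ran from 4.78 through a median of 5.60 to 5.94 on KHR arrays, and from 4.84 through 6.55 to 6.98 on KR arrays. All KR arrays except KR 4 lay above all KHR arrays. Means were 5.51 ± 0.45 in KHR and 6.32 ± 0.77 in KR tumours (SD, n = 6 each), a difference of -0.81 ± 0.31 (SE) that did not pass (adjusted p = 0.210 in limma; 95% interval -1.48 to -0.13). An exact permutation test, two-sided, gave p = 0.0541. Without KR 4 the difference was -1.10 and passed (adjusted p = 0.0117 in limma; 3.49% of all genes passed in that fit), while leaving out any other array gave adjusted p-values up to 0.370.

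On KR 4 the median was read from another probeset than elsewhere. It was supplied by probeset 1 or 3 on the 11 other arrays, and by probeset 7 on KR 4, a dim one that read 4.84 there and between 4.37 and 4.92 on all KR arrays. Probesets are numbered here in the order of their identifiers. On KR 4, probeset 3 read 4.47, against 6.64 to 7.35 on the other KR arrays, but probeset 1 read 6.05, probeset 2 read 7.42 and probeset 6 read 6.52. So KR 4 was apart in 1 bright probeset and the lowest KR array in probesets 1 and 6. The choice also differed by group: probeset 3 supplied the median on 4 KHR and 1 KR arrays, probeset 1 on 2 KHR and 4 KR arrays.

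Read one by one, the 7 probesets of Cdkn2a fell into 2 sets. Probesets 1, 2, 3 and 6, brighter than the median probeset, differed by -0.57 ± 0.19, -0.69 ± 0.19, -0.87 ± 0.45 and -0.47 ± 0.21 (SE). Probesets 4, 5 and 7, dimmer than it, differed by 0.22 ± 0.14, 0.03 ± 0.10 and 0.02 ± 0.19. The clearest of these, probeset 2, ran from 6.37 through 6.87 to 7.33 in KHR tumours and from 7.24 through 7.52 to 7.99 in KR tumours. Its groups touched only where KHR 2 and KHR 6 stood above KR 5. Probeset 1 ran from 5.68 through 5.93 to 6.50 in KHR and from 6.05 through 6.58 to 6.98 in KR tumours, with KHR 6 alone above the lowest KR arrays. None of the 7 had groups apart (1.65% of all probesets did), and none passed over all probesets (limma; lowest adjusted p = 0.129, probeset 2), where 0.883% passed; 3 of them had an unadjusted p under 0.05, as 12.7% of all probesets had.

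**Figure D2:**
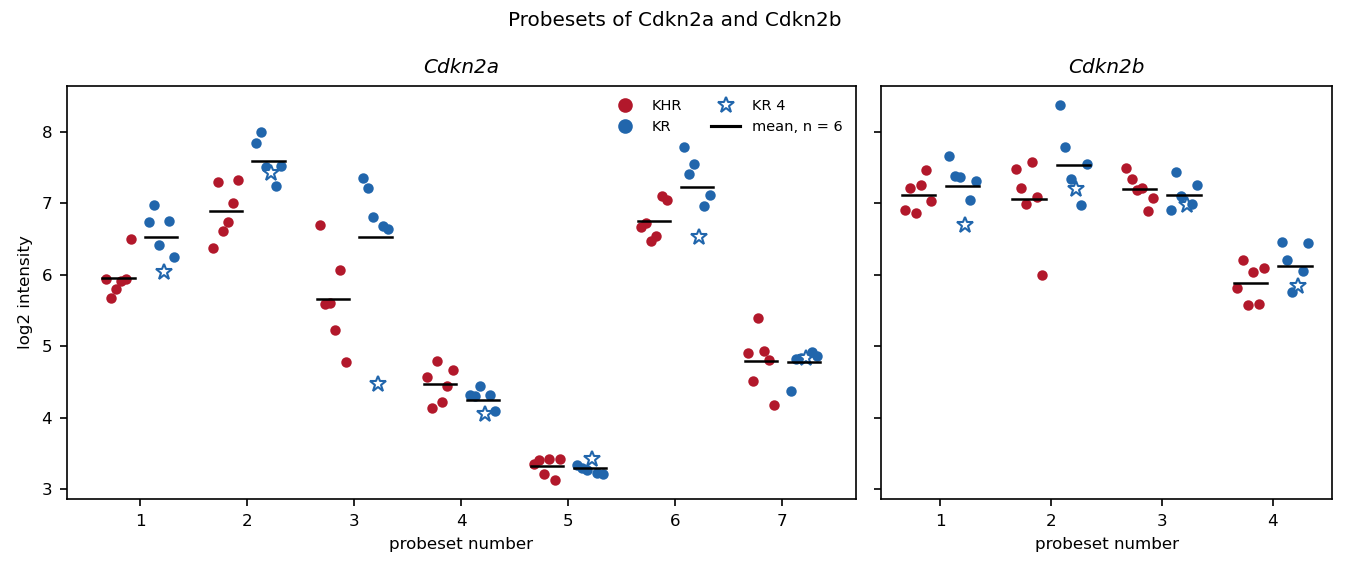
Log2 intensity of each probeset of Cdkn2a (7) and Cdkn2b (4) in KHR tumours, left of each pair, and KR tumours, right; dots are single tumours, the star is KR 4 and lines are means. Cdkn2a probesets 1, 2, 3 and 6 are lower on average in KHR tumours, while 4, 5 and 7 are dimmer. The groups overlap in each of the 7.

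Whether the probesets of Cdkn2a moved unequally was tested with limma's diffSplice over the 20799 genes with at least 2 probesets. The F of 2.93 did not pass (adjusted p = 0.177), nor did it for the other 6 members (adjusted p from 0.703 to 1; 3.53% of genes passed). It passed without KR 4 (F = 7.27, adjusted p = 0.000892 in limma; 3.13% of genes passed), and leaving out other arrays gave adjusted p-values up to 0.509. On simulated data with 200 altered genes this test called 61 unaltered genes beside 56 altered ones, so its calls there included many unaltered genes. Each probeset was drawn independently in that simulation, and the share of unaltered genes among calls on the real arrays was not measured. A stricter test added after seeing the data set each probeset against the mean of the others of its gene (limma, Simes per gene); it called 8 unaltered and 36 altered genes in simulation and gave Cdkn2a an adjusted p of 0.267. With probesets above the median level alone, the 4 that remained of Cdkn2a showed no unequal change that could be measured (F = 0.33, adjusted p = 0.997 in limma). The level was the mean over both groups, and the 4 kept were those lower in KHR tumours. This fit is therefore no independent check on unequal change.

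When each gene was summarised by the median of its brighter probesets alone, a setting also added after seeing the data, Cdkn2a stood at 6.40 ± 0.25 in KHR and 7.01 ± 0.45 in KR tumours (SD, n = 6 each). The difference of -0.61 ± 0.20 (SE) had an adjusted p of 0.0868 in limma, in a fit where 5.93% of genes passed. The mean of all 7 probesets gave -0.33 ± 0.11 (adjusted p = 0.0950 in limma) and median polish -0.35 ± 0.11 (adjusted p = 0.105). The sign was negative by these 4 summaries, while the size ran from -0.33 with the mean to -0.81 with the median of all probesets. The cut for brighter probesets used the mean over both groups, and all 4 that it kept were lower in KHR tumours. Of these, probeset 3 averaged 5.66 in KHR and 6.53 in KR tumours, at percentile 55.0 of all probesets. The brighter summary is therefore no independent check on the sign or size.

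Cdkn2b encodes p15, an INK4 protein known as an effector of TGF-beta, and lies beside Cdkn2a at chr4:89306289-89311032. It ran from 6.57 through 7.10 to 7.23 on KHR arrays and from 6.84 through 7.26 to 7.41 on KR arrays, so that most arrays of both groups shared one range and KHR 6 was the lowest. The difference was -0.15 ± 0.13 (SE; adjusted p = 0.661 in limma; 95% interval -0.44 to 0.13). Of its 4 probesets, 3 had a lower and 1 a higher mean in KHR tumours, from -0.48 for probeset 2 to 0.09 for probeset 3, and none passed (lowest adjusted p = 0.531 in limma).

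The distance between the neighbours was tested by itself. Cdkn2a minus Cdkn2b averaged -1.51 ± 0.36 in KHR and -0.85 ± 0.62 in KR tumours (SD, n = 6 each). By exact permutation this gave a two-sided p of 0.0476, where the smallest possible is 0.0021645. The result rests on the summary and on single arrays: it was -0.15 with the mean over probesets (exact permutation p = 0.275), and leaving out any of 10 arrays gave p-values between 0.0563 and 0.0996, while the p was 0.00433 without KR 4 and 0.0411 without KHR 5.

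The genes that flank the pair on chromosome 4 of that assembly did not pass either. Mtap, of methionine salvage and the nearest measured gene beyond Cdkn2a, stood at 10.08 ± 0.21 in KHR and 9.84 ± 0.17 in KR tumours (SD, n = 6 each; difference 0.23 ± 0.11, SE, adjusted p = 0.352 in limma). Wincr1, farther out on that side, differed by -0.25 ± 0.27, and on the side of Cdkn2b the DMRT family gene Dmrta1 differed by -0.01 ± 0.08 (0.02 with median polish) and Zfp352 by -0.32 ± 0.13 (adjusted p = 0.739, 0.985 and 0.249 in limma).

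Cdkn2c encodes p18, an INK4 protein that slows division in many tissues. Its value ran from 7.55 through 8.22 to 8.61 on KHR arrays and from 7.55 through 7.74 to 7.93 on KR arrays. KHR 3 to KHR 6 lay above every KR array, and KHR 1 and KHR 2 lay within the KR range. The difference of 0.36 ± 0.17 (SE) did not pass (adjusted p = 0.324 in limma; 95% interval -0.00447 to 0.73). The same probeset, number 2, supplied the median on all 12 arrays, so that this value is 1 probeset's; all 5 had a higher mean in KHR tumours, from 0.23 to 0.67. The largest was probeset 5, which ran from 6.88 through 7.15 to 7.44 in KHR and from 5.96 through 6.55 to 7.06 in KR tumours with an overlap (adjusted p = 0.123 in limma over all probesets). With the mean of the 5, the difference was 0.39 ± 0.12 (adjusted p = 0.0593).

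The 4 KHR tumours with high Cdkn2c were those with high Xist. Among arrays high in Xist, Cdkn2c averaged 8.36 in 4 KHR and 7.90 in 2 KR tumours. Among arrays low in Xist, Cdkn2c averaged 7.60 in 2 KHR and 7.66 in 4 KR tumours. The difference between the classes was 0.52 ± 0.22 (SE; interaction term in limma, unadjusted p = 0.0365, adjusted p = 0.999), so it did not pass. With the Xist level as a covariate the change of Cdkn2c was 0.20 ± 0.12. Cdkn2a averaged 5.39 in KHR and 5.55 in KR tumours among arrays high in Xist. Among arrays low in Xist it averaged 5.76 in KHR and 6.70 in KR tumours, which gave an interaction of 0.78 ± 0.52 (unadjusted p = 0.159, adjusted p = 0.999 in limma). These values rest on KR 4, 1 of the 2 KR arrays high in Xist: without it Cdkn2a stood at 5.39 in 4 KHR tumours and 6.25 in 1 KR tumour, a difference of -0.87, and the interaction was 0.07 ± 0.46. For Cdkn2c the interaction without KR 4 was 0.51 ± 0.26 (unadjusted p = 0.0828 in limma). With Xist as a covariate Cdkn2a differed by -0.57 ± 0.27 (adjusted p = 0.371).

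Cdkn2d encodes p19 INK4d, which is unrelated to p19 ARF. It ran from 5.30 through 5.96 to 6.21 on KHR arrays and from 5.01 through 5.41 to 5.86 on KR arrays, with 4 KHR arrays above every KR array. The difference was 0.41 ± 0.17 (SE; adjusted p = 0.235 in limma; 95% interval 0.05 to 0.76; exact permutation p = 0.0519). Probesets 1, 2 and 4, all below the median level of all probesets, differed by 0.48 ± 0.23, 0.41 ± 0.26 and 0.48 ± 0.20, and the 1 brighter, probeset 3, by 0.01 ± 0.20. Summarised by that brighter probeset alone, Cdkn2d differed by 0.01 (adjusted p = 0.982 in limma). Probesets 1, 2 and 4 lay just below the cut, at percentiles 49.7, 45.8 and 48.6 of all probesets. The cut used the mean over the arrays of both groups, so a probeset's own change bears on its side of the cut. This summary is therefore no independent check on the difference.

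Cdkn1a encodes p21, the CIP/KIP inhibitor that p53 induces. RefSeq lists an upstream and a downstream start for it on chromosome 17, and the 250 bases before the upstream one are shown for the p53 motif they hold. Capitals mark the motif, searched as 2 CATG cores with 6 bases between them, which reads the same on both strands, and 3 bases on each side; 0.49% of the 32851 windows of all genes held that motif, and none of the other windows of the members did.
Cdkn1a, upstream start, chr17:29090729-29090978, plus strand, GRCm38.p6: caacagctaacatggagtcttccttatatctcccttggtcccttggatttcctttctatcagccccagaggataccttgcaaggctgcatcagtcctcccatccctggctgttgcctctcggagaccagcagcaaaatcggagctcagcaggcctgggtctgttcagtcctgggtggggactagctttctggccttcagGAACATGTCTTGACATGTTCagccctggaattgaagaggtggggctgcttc
The gene ran from 10.82 through 11.64 to 11.79 on KHR arrays and from 11.06 through 11.33 to 11.80 on KR arrays. Both groups shared a range, and KHR 5, the array highest in muscle genes, was the lowest of all. Cdkn1a differed by 0.08 ± 0.17 (SE; adjusted p = 0.884 in limma; 95% interval -0.28 to 0.45), an interval that spans folds of KHR over KR from 0.822 to 1.37. Of its 6 probesets 3 had a higher and 3 a lower mean in KHR tumours. Probesets 1 and 3, which averaged 4.38 and 6.44 in KHR tumours, differed by -0.40 ± 0.41 and -0.40 ± 0.25 (SE). Probesets 2, 4, 5 and 6 averaged 11.62, 11.94, 11.39 and 11.64 there and differed by 0.09, 0.29, 0.11 and -0.11. The sign of the gene's difference turned with the mean over probesets (-0.07) and median polish (-0.00384). With the mean of the muscle genes as a covariate it was 0.26 ± 0.14 (adjusted p = 0.469 in limma). In the same fit Cdkn1b differed by 0.19, Cdkn1c by -0.15, Cdkn2a by -0.78, Cdkn2b by -0.13, Cdkn2c by 0.34 and Cdkn2d by 0.38. No member passed in that fit, and the part of muscle was not tested.

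Cdkn1b encodes p27, the inhibitor of CDK2 complexes whose protein is removed by the SKP2 ubiquitin ligase before S phase. It ran from 8.07 through 8.64 to 8.88 on KHR arrays and from 7.99 through 8.40 to 8.66 on KR arrays. KHR 1 was low and the other KHR arrays lay at or above 8.57, yet the groups overlapped. By the median the difference was 0.25 ± 0.14 (SE; adjusted p = 0.444 in limma; 95% interval -0.06 to 0.55). All 5 probesets had a higher mean in KHR tumours, from 0.24 to 0.52, with 2 at an unadjusted p under 0.05. The mean of the 5 ran from 8.32 to 8.63 in KHR and from 7.93 to 8.36 in KR tumours, and averaged 8.49 ± 0.12 in KHR and 8.15 ± 0.16 in KR tumours (SD, n = 6 each). That difference, 0.34 ± 0.08, passed (adjusted p = 0.0265 in limma), in a fit where 6.25% of all genes passed. With median polish it was 0.29 ± 0.10 and did not (adjusted p = 0.103).

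Cdkn1c encodes p57, the imprinted member of the family. It was dim, with all 5 probesets below the median level of all probesets, and with no detection call on these arrays the size of a difference is not exact. Values ran from 3.82 through 4.35 to 4.77 on KHR arrays and from 3.91 through 4.59 to 4.99 on KR arrays, in one shared range. The difference was -0.18 ± 0.20 (SE; adjusted p = 0.747 in limma; 95% interval -0.60 to 0.25), and -0.02 with either other summary of all probesets.

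**Figure D3:**
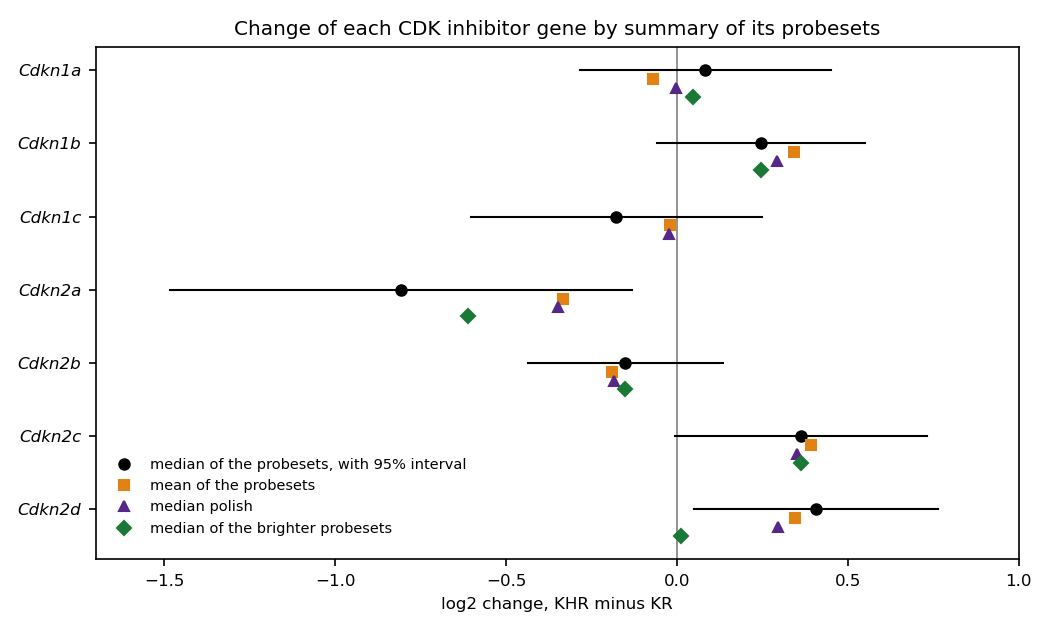
Log2 change (KHR minus KR) of each CDK inhibitor gene by 4 summaries of its probesets; the line is the 95% interval of the median's fit. Cdkn2a ranges from -0.81 with the median to -0.33 with the mean, and Cdkn2d drops to 0.01 with its 1 brighter probeset. The other probesets of Cdkn2d lie just below the median level.

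**Figure D4:**
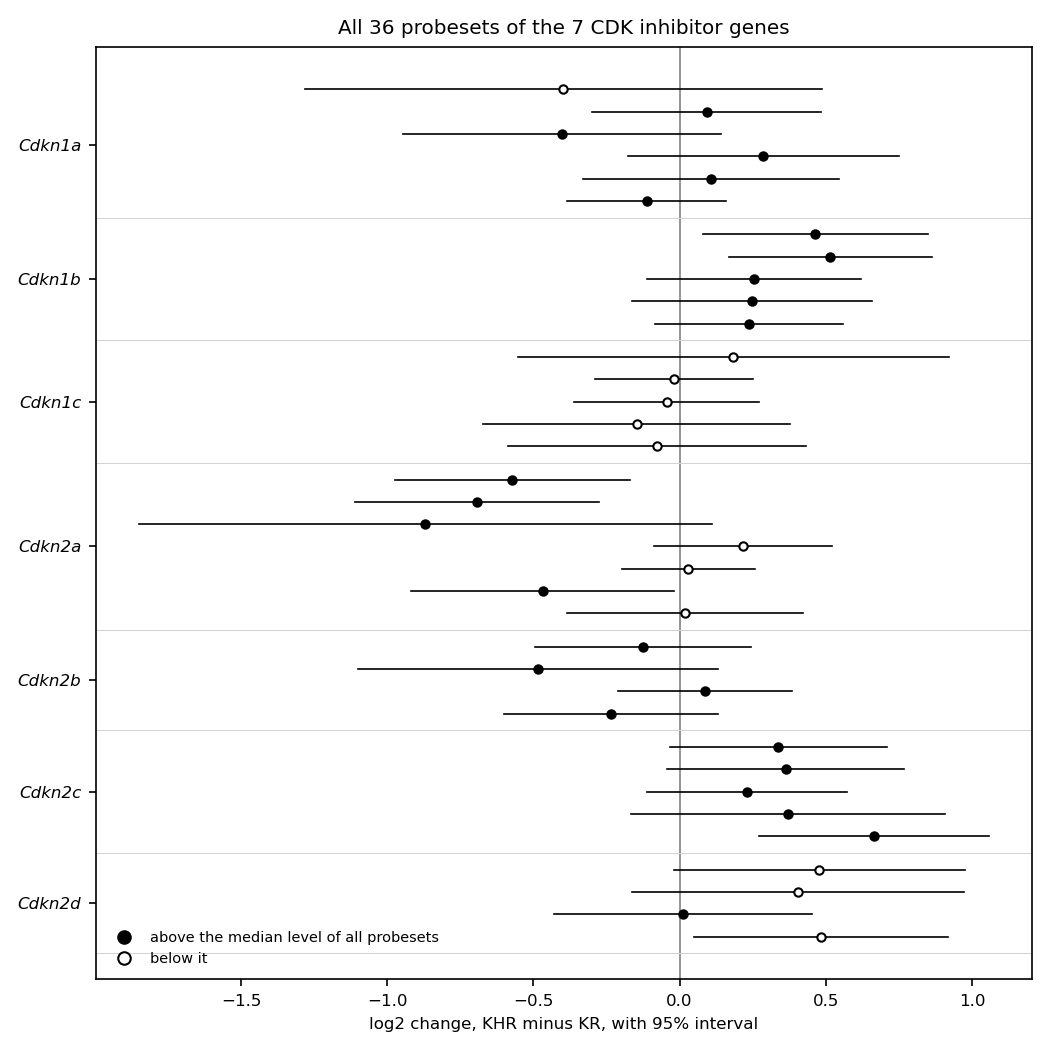
Log2 change (KHR minus KR) with its 95% interval for the 36 probesets, in the order of their identifiers within each gene; filled points lie above the median level of all probesets. All probesets of Cdkn1b, Cdkn2c and Cdkn2d have means higher in KHR tumours, and none of the 36 passed the threshold.

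Of the 36 probesets of the 7 genes, none passed in limma (0.883% of all probesets did), none had groups apart (1.65% did), and 7 had an unadjusted p under 0.05 (12.7% did). They were 3 of Cdkn2a, 2 of Cdkn1b and 1 each of Cdkn2c and Cdkn2d.

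Across tumours of a group, the members did not move with each other beyond what the correction allows. For 21 pairs, deviations from the group means were correlated over 12 arrays, with permutation within groups. The highest Pearson r was that of Cdkn2a and Cdkn2b, 0.65 (permutation p = 0.0220, adjusted p = 0.228; Spearman's rho 0.42, permutation p = 0.192). It rests on 2 arrays: without the pair farthest from the median of Cdkn2a, r was -0.08. Cdkn1b and Cdkn2c had an r of 0.64 (permutation p = 0.0260, adjusted p = 0.228; rho 0.69, permutation p = 0.0258), 0.50 without the 2 farthest arrays, and 0.67 within KHR and 0.68 within KR tumours. Cdkn1b and Cdkn1c had the highest Spearman's rho, 0.78 (permutation p = 0.00508, adjusted p = 0.107), with an r of 0.57 (permutation p = 0.0651, adjusted p = 0.228) and 0.58 without the 2 farthest arrays. Cdkn1b and Cdkn2d had an r of 0.64 (permutation p = 0.0381, adjusted p = 0.228; rho 0.56, permutation p = 0.0784; 0.52 without 2 arrays).

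Among 11551 genes above the median level, those whose deviations were most like Cdkn2a's over the 12 arrays were Cdk9 (Pearson r = 0.91), Nr2f6 (0.88) and Ormdl2 (0.87). Those most like Cdkn2b were Heatr6 (0.88), Rabl6 (0.86) and Atf4 (0.85). These are the highest values among many genes on few arrays, given as a description. The r values of Cdkn2a include KR 4, where it read 4.84 with the nearest KR tumour at 6.25. They were not computed without that array.

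The genes around the inhibitors were read by list, against 3.74% of all genes past the threshold. Of 12 measured CDKs and cyclins, 5 rose and 1 fell, with a median change of 0.39 against 0.00450 over all genes. Cdk2, the kinase bound by the CIP/KIP proteins, stood at 8.86 ± 0.27 in KHR and 7.86 ± 0.10 in KR tumours (SD, n = 6 each; change 1.00 ± 0.12, SE, adjusted p = 0.000549 in limma). Its partner Ccne1 averaged 7.76 ± 0.25 in KHR and 6.50 ± 0.34 in KR tumours, a change of 1.27 ± 0.16. The mitotic cyclin Ccnb2 averaged 9.60 ± 0.20 in KHR and 8.79 ± 0.16 in KR tumours, a change of 0.81 ± 0.11 (adjusted p = 0.00079 and 0.00125 in limma). The kinases that INK4 proteins bind did not pass: Cdk4 differed by 0.22 ± 0.08 and Cdk6 by -0.08 ± 0.12 (adjusted p = 0.161 and 0.835 in limma). The gene of that list that fell was Ccnd1, their cyclin, at 10.30 ± 0.24 in KHR and 10.82 ± 0.19 in KR tumours (change -0.52 ± 0.12, adjusted p = 0.0346 in limma). Ccnd1 no longer passed when any of 9 of the 12 arrays was left out (adjusted p up to 0.0778), nor with the mean of the probesets (-0.34, adjusted p = 0.0998), while 5 genes of the list were higher and past the threshold on leaving out any array. Cdk4, Cdk6 and Ccnd1 are named after their values were seen, and the sign of Cdk6 turned without KHR 5 (0.00983).

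Of 13 pocket protein and E2F genes, 5 rose and none fell, with a median of 0.42. The call of this list rests on single arrays, since 1 to 6 passed when each was left out, with 1 without KHR 4 or KR 2 and 2 without KHR 3. The repressor E2f7 averaged 7.52 ± 0.56 in KHR and 6.41 ± 0.24 in KR tumours (SD, n = 6 each; change 1.11 ± 0.22, SE, adjusted p = 0.0133 in limma). E2f8, also a repressor, and Tfdp2, a partner of E2F factors, rose by 0.74 ± 0.16 and 0.66 ± 0.15 (adjusted p = 0.0213 and 0.0225 in limma). E2f8 no longer passed without KHR 3, KHR 4 or KR 2, nor Tfdp2 without KHR 4, KR 2 or KR 5 (adjusted p up to 0.0557 and 0.0587). Tfdp2 differed by 0.28 when its probesets were averaged (adjusted p = 0.168).

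In the set that removes p21 and p27 protein, 3 of 13 measured genes rose and none fell, with a median of 0.24. Pcna, the sliding clamp on which p21 is marked for destruction, stood at 11.70 ± 0.21 in KHR and 10.77 ± 0.12 in KR tumours (SD, n = 6 each; change 0.93 ± 0.10, SE, adjusted p = 0.000379 in limma). Dtl, the adaptor of the CUL4 ligase that acts there, stood at 8.91 ± 0.13 in KHR and 7.90 ± 0.31 in KR tumours (change 1.01 ± 0.13, SE, adjusted p = 0.00105 in limma). Cks1b, the cofactor of SKP2, rose by 0.73 ± 0.10 (adjusted p = 0.00119 in limma), while Skp2 itself, at 0.65 ± 0.20, did not pass (adjusted p = 0.102, and 0.0413 without KHR 1; named after its value was seen). Pcna, Dtl and Cks1b passed on leaving out any array. Without KHR 1, 5 of the list passed.

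Among 18 regulators of the INK4 and ARF locus, the Polycomb genes among them, none passed (limma; 5 at an unadjusted p under 0.05, against 15.9% of all genes), and the median was -0.01. Myc, an inducer of ARF, differed by -0.57 ± 0.17 (adjusted p = 0.0887 in limma), and passed without KHR 1 or KR 4 (adjusted p = 0.0284 and 0.0361) or with the mean of the probesets (-0.39, adjusted p = 0.0232). Foxo3 differed by -0.33 ± 0.10, and Eed, a Polycomb subunit, by 0.32 ± 0.10 (adjusted p = 0.0923 and 0.111). In Foxo3 and Eed the groups did not overlap, as in 2.67% of all genes. Other Polycomb genes are named after their values were seen. Ezh2 differed by 0.51 ± 0.16 and Suz12 by 0.33 ± 0.14 (adjusted p = 0.111 and 0.269 in limma). Rnf2, Cbx2 and Bmi1 had higher means in KHR tumours (0.26, 0.20 and 0.14), and Cbx7 and Cbx8 lower ones (-0.29 and -0.06). None of 7 measured genes of the ARF and p53 axis passed (limma; 0 at an unadjusted p under 0.05), with a median of 0.03. Trp53, the gene of p53 itself, had no value here, so its RNA was not compared. Ube3a, the ligase that HPV E6 recruits to p53, differed by 0.19 ± 0.10, Npm1, a partner of ARF in the nucleolus, by -0.24 ± 0.14 and Trp63, a p53 relative of the basal epidermis, by 0.16 ± 0.11. The sign turned with the mean of the probesets for Npm1 (0.17) and Trp63 (-0.00238).

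**Figure D5:**
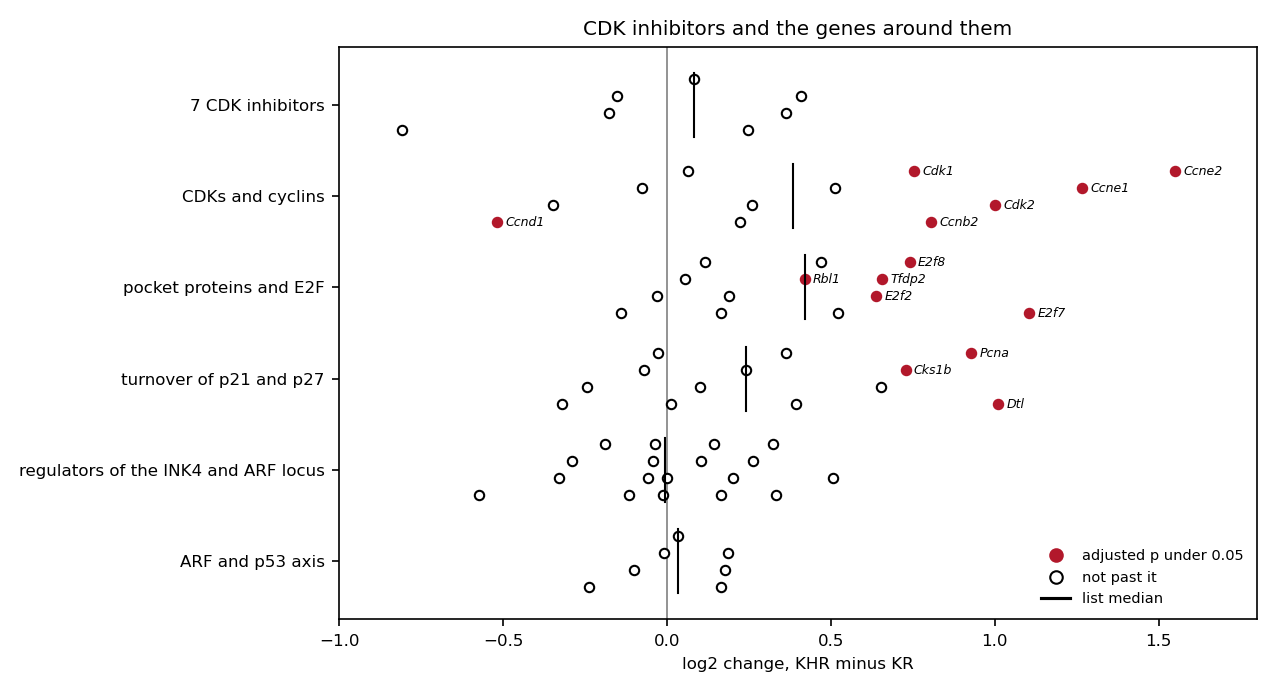
Log2 change (KHR minus KR) of the 7 CDK inhibitors and of each measured gene of 5 lists around them; filled points passed an adjusted p of 0.05 over all genes and vertical lines are list medians. No inhibitor is filled, while 5 CDK and cyclin genes, 5 pocket protein and E2F genes and 3 turnover genes are filled on the right and Ccnd1, at -0.52 (not past the threshold without some arrays), on the left.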

How the data were processed

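Total RNA of 12 tumours was hybridised to Affymetrix Mouse Gene 2.0 ST arrays read by exon probeset. The values deposited by the authors were log2 intensities, and per the submitters' processing notes Partek was used, with no version; how the background was corrected, the arrays normalized and which build was used is not stated there. Log2 was inferred from the span of the values, 2.66 to 14.9. Array medians lay between 5.62 and 5.75 and the highest correlation between 2 arrays was 0.970. The number of arrays limits the precision.

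Probesets with 1 symbol (233753; 5106 had several and 30892 none) were named by GEO's platform table, with older symbols updated through RefSeq (GRCm38.p6). A gene's value was the median of its probesets. Groups were compared with limma 3.58.1 in R 4.3.3 over all genes or probesets, without covariates, and single values by exact permutation; on simulated data limma recovered 81 of 100 genes changed by 1 and 29 of 100 changed by 0.5, and called 6 unchanged ones. Tables and figures used Python 3.11.15, scipy 1.17.1 and matplotlib 3.10.9. The members, lists and tests were chosen with earlier results of these data known. Named were all members, the 3 genes of each list with the smallest p, the flanking genes and the 3 genes most like Cdkn2a and Cdkn2b; other names are said to be outside this rule. Replicate numbers, shared by title alone, did not pair the tumours. T cell, fibroblast and endothelial marker lists were also read: means ranged from 3.92 to 4.37, 8.06 to 9.01 and 7.06 to 7.44 in KHR tumours and from 3.95 to 4.38, 7.87 to 9.16 and 6.96 to 7.89 in KR tumours. Of these lists 1 gene passed, Col1a2 of the fibroblast list (-0.80, adjusted p = 0.0220 in limma), and none of the macrophage or muscle genes did.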

Additional observations from a re-analysis of the deposited data

Results flagged for a closer look

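Of 36 groups of 6 values tested, 5 held a value far from the others by Dixon's test of the gap against the range, where chance gives about 1 in 20. The Cdkn2a value of KR 4 was 4.84, and the nearest KR tumour was at 6.25. In Cdkn2a probeset 3 the same tumour read 4.47, with the nearest at 6.64. In Cdkn2a probeset 1, KHR 6 read 6.50 and the nearest KHR tumour 5.94. In Cdkn2a probeset 7, KR 1 read 4.37 and the nearest KR tumour 4.82. In Cdkn2b probeset 2, KHR 6 read 6.00 and the nearest KHR tumour 6.99.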

How the results depend on the processing

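None of the 7 members passed under 23 of 25 alternatives; 1 passed with the mean of the probesets (Cdkn1b, 0.34), and 0 to 1 passed on leaving out each array. Cdkn2a lay between -1.10 and -0.66 on leaving out arrays, and its F of unequal change between 2.05 and 7.27. Cdkn1a turned to -0.0712 with the mean of the probesets and -0.00384 with median polish. Cdkn2a minus Cdkn2b differed by -0.15 with the mean of the probesets (exact permutation p = 0.275) and by -0.63 with quantile normalization (exact permutation p = 0.0693), and by -0.89 to -0.55 on leaving out arrays. Subtracting array medians turned Cdkn2a probeset 5 to -0.00483 and probeset 7 to -0.0172; leaving out arrays gave probeset 7 values from -0.10 to 0.14. Median polish turned Npm1 to 0.11 and Dmrta1 to 0.0234; the mean of the probesets gave 0.17 for Npm1 and -0.00238 for Trp63, and Dmrta1 lay between -0.0425 and 0.0217 on leaving out arrays. With the mean of the probesets, 5 turnover genes and 2 regulators of the locus passed; on leaving out arrays, 1 to 6 pocket protein and E2F genes, 0 to 1 regulators and 3 to 5 turnover genes passed. The cause of these shifts was not tested. List counts and list genes on leaving out arrays, the brighter probesets and the Xist classes were alternatives chosen after seeing the data. Over all genes 863 passed (625 higher), 1445 with the mean of the probesets, 555 with Xist as a covariate and 523 to 1085 on leaving out arrays; quantile normalization gave 547 higher of 851. With the replicate number as a replicate block, a number shared by title alone, 925 genes and 0 members passed (Cdkn2a adjusted p = 0.0785 in limma). Same-numbered tumours correlated between -0.00295 and 0.23. Of the KHR tumours, only KHR 1 correlated best with the KR tumour of its own number. The filter on dim genes gave no value for Cdkn1c. Dim probesets, without detection calls, limit what Cdkn1c and Cdkn2d can show.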
